A study of Mus musculus with 8 samples.

Results

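Microtubule-associated proteins (MAPs) were followed through RNA immunoprecipitates of mouse striatum. The list held 9 genes, Map1a, Map1b, Map1s, Map2, Map4, Map6, Map7, Dcx and Dclk1, and its members were all probe sets that the platform annotation names with one of these symbols alone. There were 22 such probe sets, of 45101 on the array. They stand for 8 of the 9 genes: 8 for Dclk1, 3 each for Map1b and Map7, 2 each for Map1a, Map2 and Map4, and 1 each for Map1s and Map6. Dcx was not analysed here, since none of the named probe sets carried it.

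The tissue was striatum from male HD and WT mice, 7 to 8 months old, combined into 1 pool per genotype, and the design text names 4 mice without saying how they were divided between the pools. HD is not spelled out in the labels, and the sources used here give neither the allele nor the strain. Each pool was crosslinked with formaldehyde and split into RNA immunoprecipitations (RIP) with anti-CPEB1, with anti-CPEB4 and with IgG, which measures RNA carried down without a specific antibody, beside an input sample of the same pool. All RNA was amplified over 27 cycles. This gave 4 fractions, 2 pools and 8 arrays, with 1 array for each fraction of each pool.

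MAPs bind along microtubules and set their stability, their spacing and the traffic of motors on them. In neurons they are sorted between dendrites and axons, and some of their mRNAs are carried into dendrites and translated there. CPEB proteins bind a U-rich element in the 3′ untranslated region of mRNAs and regulate their poly(A) tail and translation. Map2 mRNA is a reported CPEB target with such an element.

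The values are log2 summaries made by RMA, which corrects, normalizes and combines the probes of a set. They compare arrays within a probe set, not probe sets with each other. Array medians lay between 4.03 and 4.28. The SD over all probe sets was 1.44 and 1.71 on the HD and WT CPEB1 arrays, 1.69 and 1.80 on the CPEB4 arrays, 1.36 and 1.46 on the IgG arrays and 1.55 and 1.43 on the inputs, so that bright probe sets could stand further from the array median with CPEB4 than with IgG. Of 7 medium spiny neuron markers measured, 6 were above 4.23 in both inputs and Tac1 was not; 4.23 was the median mean value of the array's probe sets and served as the brightness filter. Of 5 neuroblast markers, a cell type in which Dcx is high, 2 did (Sox11 and Dlx1). All 4 markers each of interneurons, oligodendrocytes and microglia were above 4.23 in both inputs. So were all 3 each of endothelial cells and of choroid plexus and ependyma, and 4 of 5 of astrocytes. Of cortical excitatory neuron markers 1 of 3 did, and of oligodendrocyte precursor markers 1 of 2.

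Map2, the main MAP of dendrites, was higher with CPEB4 than with IgG and input, in both pools. Its brighter probe set (1421327_PM_at) stood at 7.58 and 8.49 on the HD and WT CPEB1 arrays, 8.72 and 9.13 on the CPEB4 arrays, 5.95 and 7.05 on the IgG arrays, and 4.69 and 6.28 on the inputs. Both CPEB4 values were above all others, both CPEB1 values were above both IgG values, and WT was above HD in each fraction. For CPEB4 against IgG the log2 fold was 2.43 ± 0.35 (SE, n = 2 pools; 5.38-fold, adjusted p = 0.0419), by a limma model of fraction and pool over 11345 genes, each represented by its brightest probe set. For CPEB4 against input it was 3.44 ± 0.35 (10.9-fold, adjusted p = 0.0382), while IgG itself stood 1.01 ± 0.35 above input without passing the test (adjusted p = 0.474). With CPEB1 Map2 was 1.53 ± 0.35 above IgG and 2.55 ± 0.35 above input, and neither passed (adjusted p = 0.328 and 0.124).

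The Map2 call over IgG was close to the threshold of 0.05. It was lost under 15 of 17 alternative settings, and over all 17 the adjusted p ran from 0.0358 to 0.209 and the log2 fold from 1.51 to 2.82. Leaving out any 1 of the 8 arrays ended it, with adjusted p from 0.0596 to 0.209 and folds from 2.03 to 2.82. The call over input was lost under 13 of 17 settings (adjusted p from 0.0341 to 0.239 over all 17), and without any 1 of the arrays the adjusted p ran from 0.0584 to 0.239. Averaging both Map2 probe sets gave 1.59 over IgG (adjusted p = 0.103). The second Map2 probe set (1421328_PM_at) did not follow the first in the HD pool: it stood at 3.64 and 4.20 with CPEB1, 4.18 and 6.25 with CPEB4, 5.35 and 3.58 with IgG, and 3.87 and 3.35 in the HD and WT inputs. Its difference between CPEB4 and IgG was thus -1.18 in HD and 2.67 in WT. Over the 8 arrays the probe sets correlated at r = 0.369, as a description, since the arrays share pools and an amplification.

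**Figure D1:**
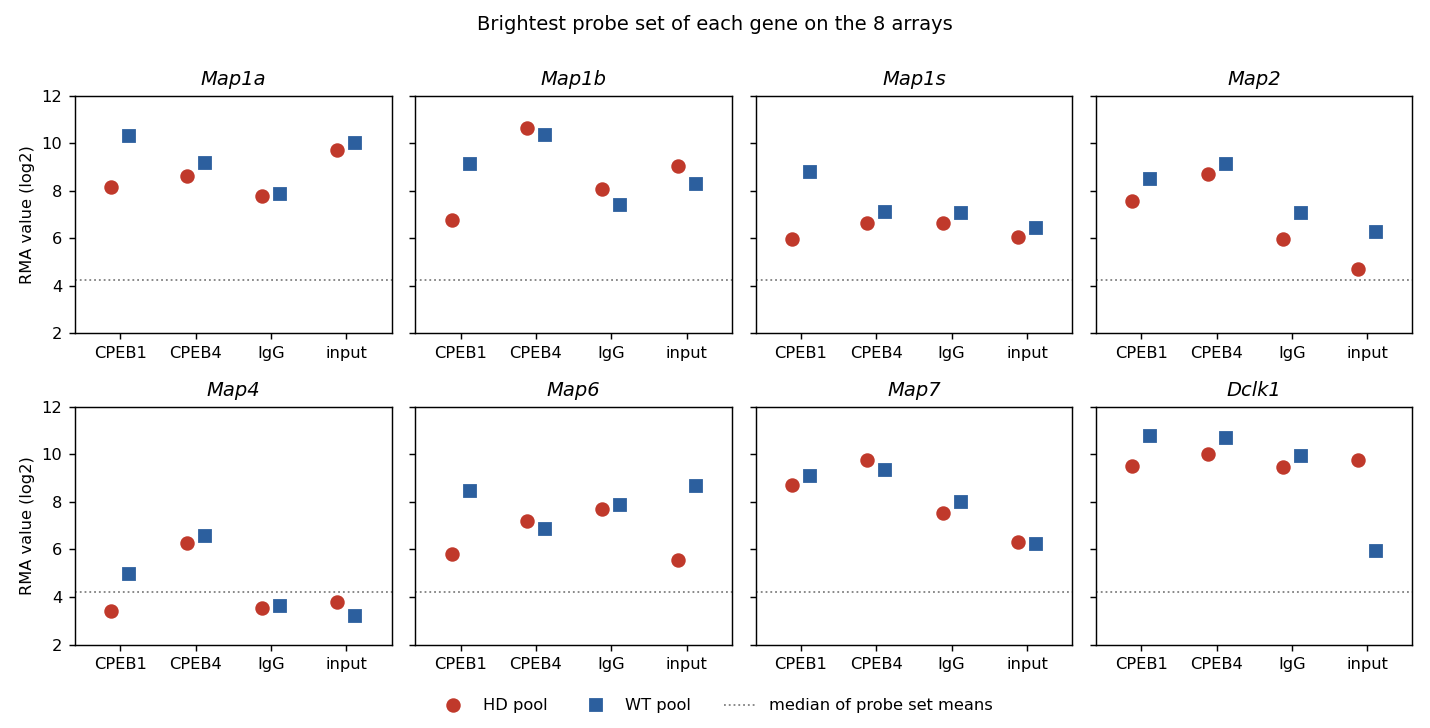
RMA values (log2, y axis) of the brightest probe set of each gene on the CPEB1, CPEB4, IgG and input arrays (x axis), as circles for the HD pool and squares for the WT pool, 1 array each; the dotted line is the brightness filter, 4.23. Map2 and Map7 step down from CPEB4 to CPEB1, IgG and input, Map4 lies above the line on both CPEB4 arrays and on the WT CPEB1 array, and the WT input of Dclk1 and the HD input of Map6 lie far from the other pool's input.

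Map4, which shares its microtubule-binding repeats with Map2 and tau and is expressed in many cell types, was above the brightness filter on both CPEB4 arrays and below it on both IgG arrays and both inputs. Its brighter probe set stood at 3.42 and 4.97 on the HD and WT CPEB1 arrays, 6.27 and 6.59 on the CPEB4 arrays, 3.54 and 3.61 on the IgG arrays, and 3.78 and 3.21 on the inputs. The other array above 4.23 was that of WT CPEB1. The fitted CPEB4 fold was 2.85 ± 0.53 over IgG (7.22-fold, adjusted p = 0.0665 by limma) and 2.93 ± 0.53 over input (adjusted p = 0.0706). Neither passed; without either CPEB1 array the fold over IgG was the same and its adjusted p was 0.0462. Without the CPEB4 arrays its mean was 3.76, so Map4 entered the test through the group in which it was high, and a fold against values near the array background depends on that background. The second Map4 probe set stayed between 3.47 and 4.13 on all 8 arrays.

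Map7 (ensconsin), which recruits kinesin-1 to microtubules, followed the order of Map2. Its brightest probe set stood at 8.73 and 9.07 on the HD and WT CPEB1 arrays, 9.75 and 9.35 on the CPEB4 arrays, 7.54 and 7.99 on the IgG arrays, and 6.30 and 6.22 on the inputs. The 4 fractions did not overlap. Over input CPEB4 was 3.29 ± 0.31 higher (9.78-fold, adjusted p = 0.037 by limma, lost under 12 of 17 settings, over all of which the adjusted p ran from 0.0165 to 0.239, and with 0.0521 to 0.239 without any 1 array). Averaged over its 3 probe sets it was 1.32 (adjusted p = 0.0563). CPEB1 was 2.64 ± 0.31 above input (adjusted p = 0.109), and IgG was 1.51 ± 0.31 above it (adjusted p = 0.315). Over IgG the folds were smaller: 1.14 ± 0.31 with CPEB1 (adjusted p = 0.455) and 1.78 ± 0.31 with CPEB4 (3.45-fold, adjusted p = 0.0597). Of the other Map7 probe sets, 1421836_PM_at stood at 4.55 and 5.68 with CPEB4, in HD and WT, against 4.46 and 4.45 with IgG, and 1421835_PM_at stood at 3.96 and 3.48 with CPEB4 against 3.91 and 3.59 with IgG. Probe set 1421835_PM_at correlated with the brightest at r = -0.222 over the 8 arrays. Averaged over the 3 probe sets CPEB4 over IgG was 0.81 (adjusted p = 0.114 by limma). Over the 8 arrays Map2 and Map7 correlated at r = 0.921, the highest value among pairs of the 8 genes.

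The MAP1 proteins are made as long precursors that are cut into a heavy and a light chain. Map1b, prominent in growing axons, was high with CPEB4 in both pools. Its brightest probe set stood at 6.77 and 9.14 on the HD and WT CPEB1 arrays, 10.66 and 10.34 on the CPEB4 arrays, 8.07 and 7.42 on the IgG arrays, and 9.02 and 8.30 on the inputs. The CPEB4 values were above the other 6, and the CPEB1 values lay on either side of IgG. The CPEB4 fold over IgG was 2.75 ± 0.82 (6.75-fold) and did not pass (adjusted p = 0.15 by limma), and averaged over its probe sets it was 1.76. Without either CPEB1 array the fold was the same and the adjusted p was 0.046. A second probe set of Map1b (1421851_PM_at) was also above IgG with CPEB4, by 1.27 in HD and 1.12 in WT. Its mean of 3.90 was below the brightness filter. It stood at 5.07 and 4.66 on the HD and WT CPEB4 arrays and at 3.41 to 3.80 on the other 6, near the array background. The third (1450397_PM_at) was high only in WT precipitates: 9.32 with CPEB1 and 7.67 with CPEB4, against 4.92 to 5.68 on the other 6 arrays.

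Map1a, the MAP1 of mature dendrites, was lower in every precipitate of HD than in the HD input. Its brighter probe set stood at 8.14 and 10.29 on the HD and WT CPEB1 arrays, 8.60 and 9.16 on the CPEB4 arrays, 7.76 and 7.88 on the IgG arrays, and 9.71 and 10.02 on the inputs. The WT CPEB1 value was the highest of the 8. IgG was the lowest fraction, 2.05 ± 0.55 below input (log2 fold -2.05, adjusted p = 0.409 by limma), and so Map1a lay above IgG with CPEB1 (1.40 ± 0.55, adjusted p = 0.67) and CPEB4 (1.06 ± 0.55, adjusted p = 0.29) while CPEB4 was at -0.98 ± 0.55 against input (adjusted p = 0.286). The CPEB4 difference from IgG turned to -0.021 under cyclic loess and -0.065 after quantile normalization. The second Map1a probe set ran the other way, with 4.51 and 3.71 on the CPEB4 arrays against 4.86 and 4.96 on the IgG arrays.

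Map1s, the short member of the family, did not separate CPEB4 from IgG. It stood at 5.96 and 8.78 on the HD and WT CPEB1 arrays, 6.63 and 7.09 on the CPEB4 arrays, 6.65 and 7.06 on the IgG arrays, and 6.04 and 6.45 on the inputs. The WT CPEB1 array was 1.69 above the next highest of the 8, and the HD CPEB1 array was the lowest. The CPEB4 fold over IgG was 0.0069 ± 0.68 (adjusted p = 0.995 by limma).

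Map6 (STOP), which makes microtubules stable to cold, was the 1 gene of the 8 whose brightest probe set was below IgG with CPEB4 in both pools. It stood at 5.83 and 8.44 on the HD and WT CPEB1 arrays, 7.18 and 6.86 on the CPEB4 arrays, 7.71 and 7.85 on the IgG arrays, and 5.56 and 8.65 on the inputs. The inputs of the pools lay at the extremes of the 8 values, and no fraction differed from input with the same sign in both pools. The CPEB4 fold over IgG was -0.76 ± 0.95 (adjusted p = 0.613 by limma), and it was 0.38 without the WT CPEB4 array and 0.068 without the HD IgG array.

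Dclk1, a doublecortin-like kinase that binds microtubules through doublecortin domains and is made as several transcripts from more than one promoter, had probe sets that disagreed. The brightest (1451917_PM_a_at) stood at 9.50 and 10.79 on the HD and WT CPEB1 arrays, 10.03 and 10.67 on the CPEB4 arrays, 9.45 and 9.95 on the IgG arrays, and 9.77 and 5.92 on the inputs. The WT input was the 1 low value, and the SE of all its folds was 1.27 (CPEB4 against IgG 0.65, adjusted p = 0.747 by limma). A second probe set (1424271_PM_at) was the reverse in the inputs, 3.85 in HD and 8.06 in WT, and stood at 5.79 and 6.34 with CPEB4 against 3.67 and 4.70 with IgG. Probe set 1450863_PM_a_at stood at 4.01 and 6.77 with CPEB1 and 4.84 and 7.68 with CPEB4, against 3.88 and 4.55 with IgG. Probe set 1436659_PM_at lay above 4.23 only on the WT CPEB4 array, at 6.01. Of the 8 Dclk1 probe sets 6 were above IgG in both pools with CPEB4, by 0.46 to 3.13, against 22.6% of all 45101 probe sets. Of these, 1435940_PM_at, 1436659_PM_at and 1451289_PM_at had means below 4.23, and 1451289_PM_at was at most 3.87 on all 8 arrays.

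**Figure D2:**
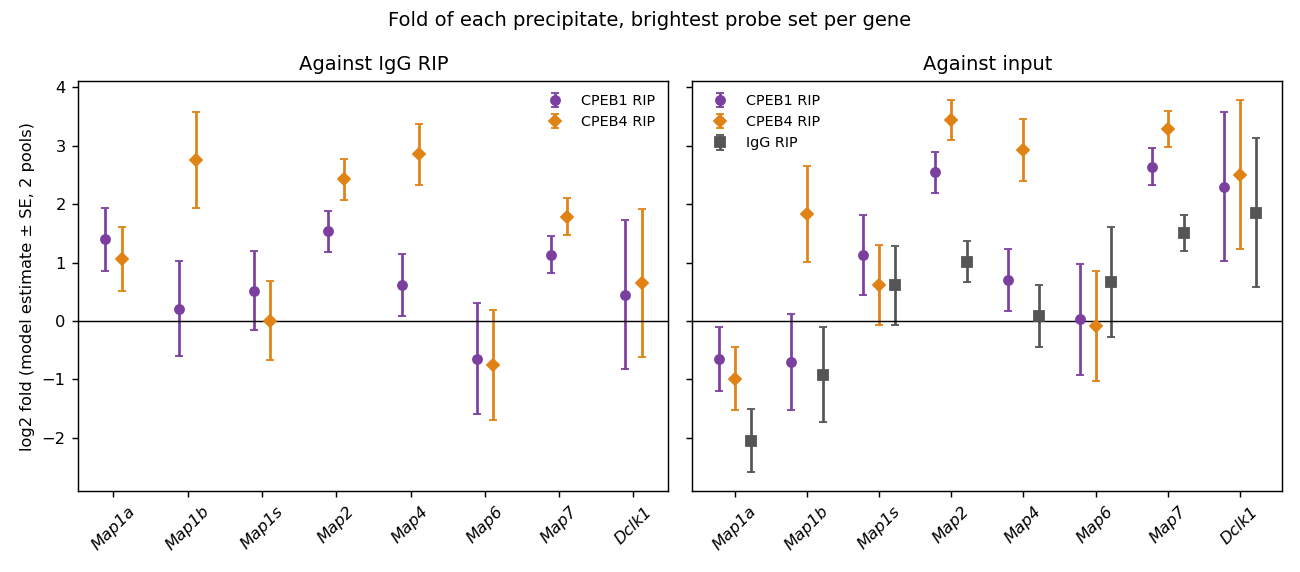
Log2 folds (y axis, estimate ± SE of the limma model with 2 pools) of the precipitates against IgG RIP (left) and against input (right) for the brightest probe set of each gene (x axis), with circles for CPEB1, diamonds for CPEB4 and squares for IgG. CPEB4 over IgG is near 2.4 to 2.9 for Map1b, Map2 and Map4 and near 0 for Map1s. IgG itself lies above input for Map2, Map7 and, with the widest SE, Dclk1. It is above input by less for Map1s and Map6, near input for Map4, and below input for Map1a and Map1b.

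By the limma model 1 of the 8 genes, Map2, was called higher with CPEB4 than with IgG, against 2.33% of all 11345 genes called higher, and none lower. At an unadjusted p under 0.05 there were 4 higher (Map1b, Map2, Map4 and Map7), against 15.7% of all genes, and at 2-fold in both pools the same 4, against 14.3%. Map4 stands in these counts through a filter that its CPEB4 arrays carried it over; without it 3 of 7 genes had an unadjusted p under 0.05 and 3 of 7 were 2-fold higher in both pools, a count added after seeing the data. Over input 2 were called higher with CPEB4, Map2 and Map7, against 1.34% of all genes. With CPEB1 0 were called over IgG, where 0% of all genes were, and 3 had an unadjusted p under 0.05 (Map1a, Map2 and Map7), against 6.37% of all genes; 0 were called over input, against 0.0176%, with 2 at an unadjusted p under 0.05 (Map2 and Map7), against 5.42%. The median log2 fold of the 8 genes with CPEB4 over IgG was 1.42 (1.06 without Map4), against -0.065 over all genes tested, but 7 of the 8 lay above the 75th percentile of probe set means, and the 6417 genes above it had a median of 0.34. The median of all genes moved to 0.096 under median centring and -0.25 after quantile normalization. Comparisons against IgG share the IgG arrays and those against input share the inputs.

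Over all 22 probe sets, with no filter on brightness, 13 were above IgG in both pools with CPEB4, 4 were below in both and 5 were split, against 22.6% of all 45101 probe sets above and 53.5% below. At 2-fold in both pools there were 7, against 7.94% of all: those of Map1b (2), Map2, Map4, Map7 and Dclk1 (2). Of these 7, 5 had a mean above 4.23, and 1421851_PM_at of Map1b and 1435940_PM_at of Dclk1 did not. With CPEB1 9 were above IgG in both pools, 6 below and 7 split, against 25.8% above and 29.1% below, and 2 were 2-fold higher in both (Map2 and Map7), against 2.06%. Of the 22 probe sets 15 had a mean above 4.23. The shares of all 45101 probe sets were not matched to them in brightness, and bright probe sets could stand further from the array median with CPEB4 than with IgG. Of the 13 above IgG with CPEB4, 6 were probe sets of 1 gene, Dclk1.

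**Figure D3:**
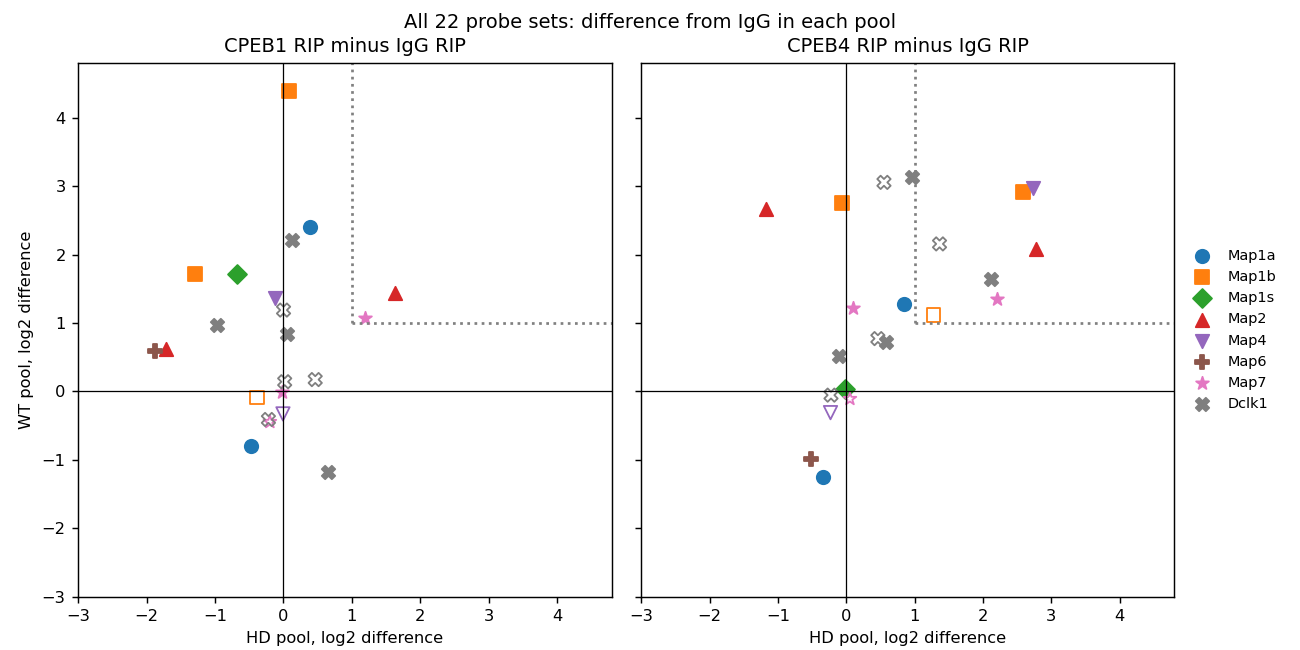
Difference from IgG RIP (log2) in the HD pool (x axis) and the WT pool (y axis) for all 22 probe sets, with CPEB1 on the left and CPEB4 on the right; symbols give the gene, filled where the mean is above 4.23, and the dotted corner marks 2-fold in both pools. With CPEB4 7 probe sets lie in the corner, with CPEB1 2, and with CPEB1 several stand high in WT and near or below 0 in HD.

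Between the antibodies 0 of the 8 genes were called with CPEB1 against CPEB4, where 0.141% of all genes were called lower and 0% higher. At an unadjusted p under 0.05 by limma 3 were lower with CPEB1 than with CPEB4, against 9.41% of all genes: Map1b (log2 -2.54 ± 0.82, adjusted p = 0.277), Map4 (-2.23 ± 0.53, adjusted p = 0.175) and Map2 (-0.89 ± 0.35, adjusted p = 0.323). Map1b and Map4 were lower by at least 2-fold in both pools, against 7.82% of all genes, and Map2 by 1.14 in HD and 0.64 in WT. Without Map4, 2 of 7 had an unadjusted p under 0.05 and 1 was 2-fold lower in both pools. Map1a, Map1s, Map6 and Dclk1 had CPEB1 above CPEB4 in WT and below it in HD.

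Between genotypes each difference rests on 1 array of 1 pool each and was not tested, and in such bulk samples fewer cells of a type and less RNA per cell cannot be told apart. With CPEB1 all 8 genes were lower in HD than in WT, 6 of them by at least 1 on the log2 scale. By that much 17.9% of all genes were lower, and 26.6% of the 6417 genes above the 75th percentile. The share of genes lower by any amount was not counted, and the median difference over all genes tested was 0.0037. Map4 is in both counts, although it entered the test through its CPEB4 arrays and stood at 3.42 with CPEB1 in HD. The differences were -2.82 for Map1s, -2.61 for Map6, -2.36 for Map1b, -2.14 for Map1a, -1.55 for Map4 and -1.29 for Dclk1, with -0.91 for Map2 and -0.34 for Map7. The count depended on the scaling: after quantile normalization 6 of 8 were lower (Map2 at 0.068 and Map7 at 0.66 were not), and 7 of 8 under cyclic loess and with averaged probe sets, where Map7 was at 0.31 and 0.072. Those lower by at least 1 were 5 under cyclic loess and quantile normalization, 3 with averaged probe sets and 7 under median centring. Map1s, Map6 and Map1b were lower by more than 1 under each of these 4 settings. Beside this, the HD CPEB1 array had the smaller spread of the pair. The markers of medium spiny neurons (7 genes) averaged 7.21 in HD and 8.60 in WT with CPEB1, and those of interneurons (4 genes) 6.37 and 8.46. Among those of medium spiny neurons, Drd2 (-4.25), Rgs9 (-2.57), Ppp1r1b (-1.93), Penk (-1.02) and Pde10a (-0.57) were lower in HD, and Drd1 (0.05) and Tac1 (0.60) were higher. Of 10 marker lists 6 averaged lower in HD than in WT with CPEB1, among them astrocytes (4.74 in HD, 5.70 in WT), and 4 averaged higher, among them choroid plexus and ependyma (6.84 and 6.23). The part of these in the differences was not tested. Of the 22 probe sets 10 were lower by at least 1 in HD and 0 higher, against 9.42% and 2.47% of all probe sets. The 10 include the 6 brightest probe sets counted above, and several are of 1 gene, Dclk1. The shares of all probe sets were not matched to them in brightness.

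With CPEB4 0 of the 8 brightest probe sets differed by 1 between the pools (all between -0.64 and 0.40), where 11.6% of all genes were lower in HD by that much and 4.55% higher. Of all 22 probe sets, however, 6 were lower in HD by at least 1 and 0 higher, against 7.85% and 2.96% of all probe sets. Among the 6 were 1450397_PM_at of Map1b (-2.73) and 1450863_PM_a_at of Dclk1 (-2.83). Several of the 6 were probe sets of Dclk1, and the shares were not matched in brightness. With averaged probe sets Map2 (-1.24) and Dclk1 (-1.12) were lower by over 1. With IgG the differences ran from -1.10 for Map2 to 0.65 for Map1b. In the inputs Map2 (-1.59) and Map6 (-3.09) were lower in HD by at least 1, against 4.43% of all genes, and Dclk1 (3.85) was higher, against 11.3%. The second probe set of Map2 did not follow in the inputs (3.87 in HD, 3.35 in WT), nor did the other 7 of Dclk1, which ran from -4.21 to 0.13 for HD minus WT, and Map6 has no other. Averaged over its probe sets, the input difference of Dclk1 was -0.29, and the IgG difference of Map2 averaged in the same way was 0.34. In the inputs 6 of the 10 marker lists averaged lower in HD and 4 higher. Markers of choroid plexus and ependyma (3 genes) averaged 6.79 in HD and 5.50 in WT, those of astrocytes (5 genes) 6.27 and 5.54, those of interneurons (4 genes) 7.72 and 7.06, those of endothelial cells (3 genes) 5.53 and 6.06, and those of medium spiny neurons (7 genes) 7.59 and 7.70. Some single markers differed by more, and the markers of a list did not move together. Among those of choroid plexus and ependyma, Ttr was 3.89 higher in HD, while HD minus WT was 0.22 for Kl and -0.25 for Foxj1. In the list of interneurons Gad2 differed most (1.66), with 0.86 for Pvalb, 0.27 for Sst and -0.16 for Npy. Among those of astrocytes, Gfap (2.48), Gja1 (2.28) and Slc1a3 (0.41) were higher in HD, and Aldh1l1 (-1.16) and Aqp4 (-0.37) were lower. The near-equal averages of the medium spiny neuron list held opposite differences. Rgs9 (1.09), Tac1 (0.69, below 4.23 in both inputs) and Drd2 (0.49) were higher in HD. Penk (-1.34), Pde10a (-0.86), Ppp1r1b (-0.77) and Drd1 (-0.059) were lower. The part of cell composition in these differences was not tested.

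**Figure D4:**
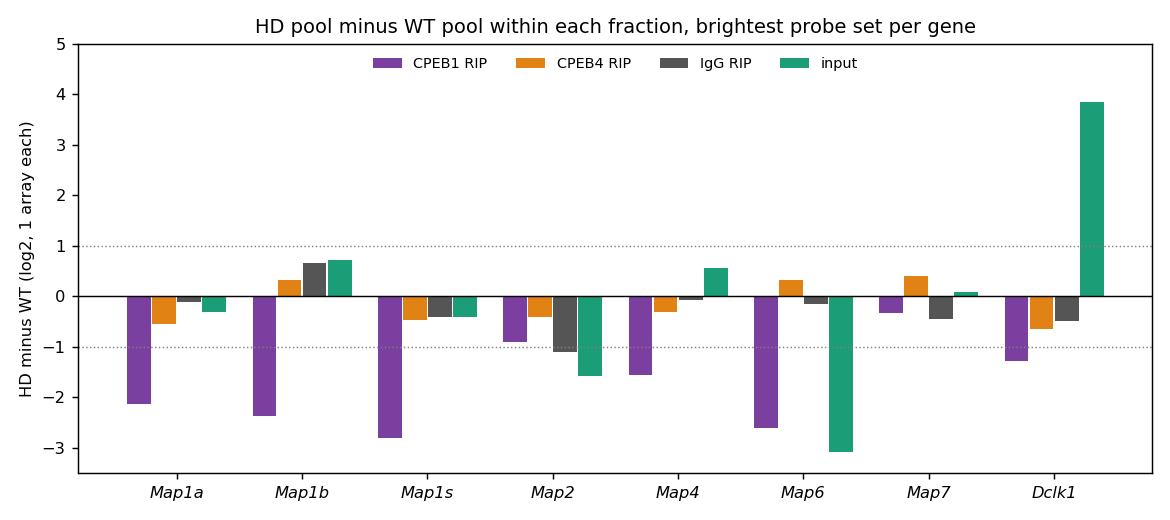
HD minus WT difference (log2, 1 array each, y axis) of the brightest probe set of each gene (x axis) in CPEB1 RIP, CPEB4 RIP, IgG RIP and input, as bars from 0 with no error since there is no replicate; dotted lines mark differences of 1. The CPEB1 bars are below 0 for all 8 genes (for 6 after quantile normalization), the CPEB4 bars stay within 1, and the inputs of Map6 and Dclk1 have the longest bars.

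Other genes of the microtubule system were taken from a list of 82, of which 74 had a probe set and 62 were tested. With CPEB4 over IgG 1 of the 62 was called higher, Crmp1, a collapsin response mediator that binds tubulin. None was called lower, and the shares of all genes were 2.33% higher and 0.0441% lower. At an unadjusted p under 0.05 by limma 13 of the 62 were higher and 1 lower, against 15.7% of all genes higher. At 2-fold in both pools 13 were higher and 0 lower, against 14.3% of all genes higher. Crmp1 stood at 7.83 and 8.14 on the HD and WT CPEB1 arrays, 9.57 and 9.70 on the CPEB4 arrays, 6.99 and 7.71 on the IgG arrays, and 7.76 and 7.38 on the inputs (CPEB4 over IgG 2.28 ± 0.34, adjusted p = 0.0445 by limma, lost under 14 of 17 settings, with adjusted p from 0.0269 to 0.234 over all 17). Over input 1 of the 62 was called higher with CPEB4, against 1.34% of all genes: Map9, a MAP of the mitotic spindle. It stood at 7.12 and 6.93 with CPEB4 against 4.99 and 3.88 in the inputs (2.59 ± 0.35, adjusted p = 0.0452 by limma). The call was lost under 12 of 17 settings, with adjusted p from 0.0334 to 0.25 over all 17. Averaged over its probe sets the fold was 1.12. Map9 stood at 6.43 and 5.94 on the HD and WT IgG arrays. IgG was thus itself 1.75 ± 0.35 above input (adjusted p = 0.286 by limma), and CPEB4 was 0.84 ± 0.35 above IgG (adjusted p = 0.231). The largest folds with CPEB4 over IgG were those of the plus-end binding Mapre2 (3.21 ± 0.62) and Mapre3 (2.65 ± 0.71) and of Tppp, a tubulin polymerization promoting protein of oligodendrocytes (3.12 ± 0.77), which lay at 3.59 to 3.74 in IgG and input. None of these 3 passed (adjusted p = 0.0723, 0.13 and 0.115 by limma). Mapre2 stood at 9.14 and 9.57 on the HD and WT CPEB4 arrays, 5.46 and 6.84 on the IgG arrays, and 8.46 and 8.39 on the inputs. Against input Mapre2 was thus at 0.94 ± 0.62 with CPEB4 (adjusted p = 0.352) and at -2.27 ± 0.62 with IgG. CPEB4 over input was 2.64 ± 0.71 for Mapre3 and 2.99 ± 0.77 for Tppp.

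By role the medians for CPEB4 over IgG were 0.28 for 11 tubulins, 1.06 for 12 other lattice-binding proteins, 1.06 for 14 plus-end and minus-end proteins, 0.29 for 8 stathmins and collapsin response mediators, 0.25 for 4 severing enzymes and -0.088 for 13 kinases and tubulin-modifying enzymes, and 0.58 for all 62, against -0.065 for all genes tested. The 6417 genes above the 75th percentile of probe set means had a median of 0.34. Tubulins, stathmins and collapsin response mediators, severing enzymes, and kinases and modifying enzymes lay below that. With CPEB1 0 of the 62 passed over IgG by limma, and 2 had an unadjusted p under 0.05 and were higher, against 6.37% of all genes. Their median with CPEB1 over IgG was 0.39 for all 62, against 0.093 for all genes and 0.22 for those above the 75th percentile. The largest folds with CPEB1 over IgG were those of Mapt, which encodes tau (1.91 ± 1.20, adjusted p = 0.834 by limma), the kinase Mark2, which phosphorylates tau and Map2 (1.89 ± 0.63, adjusted p = 0.584), and Map7d1, a relative of Map7 (1.80 ± 1.31, adjusted p = 0.858). Against input Mark2 was at -0.71 ± 0.63 with CPEB1 and at -2.60 ± 0.63 with IgG. For Mapt the difference was 3.59 in HD and 0.24 in WT, and without the HD IgG array the estimate was -0.15.

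Of 11337 other genes tested, the 5 whose values followed those of Map2 most closely over the 8 arrays were Cacna2d2, a calcium channel subunit (r = 0.957), Nat14 (0.955), the cohesin subunit Rad21 (0.953), Eif1ad (0.95) and Erich3 (0.947). The arrays share 2 pools and 4 fractions, and the genes were picked as the highest of many, so these values only describe likeness. Cacna2d2 stood at 7.99 and 9.06 on the HD and WT CPEB1 arrays, 9.57 and 10.04 on the CPEB4 arrays, 7.48 and 8.10 on the IgG arrays, and 6.73 and 7.11 on the inputs.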

How the data were processed

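The deposited log2 values of 8 Affymetrix mouse arrays were used as given, with no further scaling. They were made with RMA by the authors, per the submitters' processing notes; the sources used here give no version and do not say if RMA was run on all arrays at once. Of 45101 probe sets 28898 have 1 gene symbol in the platform annotation, 551 several and 15652 none, and 28689 symbols were matched by gene ID to the RefSeq table of GRCm38.p6. For 17097 genes the brightest probe set (highest mean over the 8 arrays, 1 symbol) was taken, and 11345 of these exceeded the filter of 4.23, the median mean value on the array, and were tested. Limma 3.58.1 (R 4.3.3; two-sided lmFit and eBayes tests, Benjamini-Hochberg adjusted p under 0.05 over all genes) fitted fraction and pool over the 8 arrays, with 3 residual degrees of freedom and 2.29 from the prior. With pools in place of replicates, p-values measure how evenly fractions differed between them, and the number of arrays limits the precision. The labels carry no replicate numbers; the pool is the block.

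Members, lists, tests and settings were chosen with earlier results of these data known. Named genes were the 9 members; from the list of other microtubule genes, every gene called and the 3 largest folds of each antibody over IgG; and the 5 genes most like Map2. No sequence is printed, since no untranslated region, probe or protein sequence was used here.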

Additional observations from a re-analysis of the deposited data

Results flagged for a closer look

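Genes whose brightest probe set moved in opposite directions in the pools, by at least 0.5 on the log2 scale in each, are given here as HD minus WT differences between the effects. None was tested, since each effect is a difference of 2 single arrays.

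For CPEB1 over IgG the effect was -1.29 in HD and 1.72 in WT for Map1b (difference -3.01), -0.69 and 1.72 for Map1s (-2.41), and -1.88 and 0.59 for Map6 (-2.47). For CPEB1 over CPEB4 it was -0.67 in HD and 1.69 in WT for Map1s (-2.35), and -1.36 and 1.58 for Map6 (-2.94). For CPEB1 over input it was -2.25 in HD and 0.83 in WT for Map1b (-3.08). For CPEB4 over input it was 1.62 in HD and -1.79 in WT for Map6 (3.41), and for IgG over input it was 2.14 and -0.80 for Map6 (2.94). The input arrays of Map6 were at 5.56 in HD, the lowest of its 8 values, and 8.65 in WT, the highest. On the CPEB1 arrays Map1b, Map1s and Map6 had 6.77, 5.96 and 5.83 in HD, against 9.14, 8.78 and 8.44 in WT.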

How the results depend on the processing

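The call of Map2 with CPEB4 over IgG (1 gene of the 8) became 0 with a filter at the 75th percentile, averaged probe sets, cyclic loess, quantile normalization, trended robust eBayes or only the arrays compared, and 2 with no replicate block, where Map4 (adjusted p = 0.0468) and Map7 (0.0364) passed and Map2 did not (0.114). The 2 calls over input became 0 with the 75th percentile filter, averaged probe sets, quantile normalization or only the arrays compared, and 1 with no replicate block. Leaving out each array gave 0 to 2 calls over IgG and 0 over input; a fraction left with 1 array is taken to vary like the others. Other member counts stayed at 0. The labels carry no replicate numbers; the block is the genotype pool, and without it CPEB1 comparisons had 0 calls as with it. With 8 arrays, folds of probe sets near 4.23 are limited by array background; the causes of lost calls were not tested.

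Directions turned as follows. For CPEB4 over IgG, cyclic loess gave -0.021 for Map1a, -0.36 for Map1s and -0.61 for Dclk1, and quantile normalization -0.065, -0.84 and -0.0080. For CPEB1 over IgG, cyclic loess gave -0.47 for Map1b and -0.39 for Dclk1, and quantile normalization -0.47 for Map1b and -0.14 for Map1s. For CPEB1 over CPEB4, Dclk1 had 0.22 with cyclic loess and 0.094 with quantile normalization, and Map6 -0.0065 with median centring. For CPEB4 over input Map6 had 0.096 with median centring. For CPEB1 over input Map6 had -0.14 with cyclic loess and -0.43 with quantile normalization, and Map1b 0.31 as the mean of probe sets. For IgG over input Dclk1 had -0.0046 as that mean, and HD minus WT became -0.29 for Dclk1 in input and 0.34 for Map2 in IgG, the differences of at least 1 that turned. Of the 32 HD minus WT differences 12 changed sign under at least 1 setting. The others, all smaller than 1, were Map7 (0.66) and Map2 (0.068) with CPEB1 after quantile normalization, Map1a (0.12), Map1b (-0.67) and Map7 (-0.083) with CPEB4 as the mean of probe sets, Map1a (0.55), Map6 (0.045) and Dclk1 (0.34) with IgG under cyclic loess, Map7 (0.026) with IgG after quantile normalization, and Map7 (-0.32) in input under cyclic loess.

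Leaving out each array turned these estimates, given as ranges. With CPEB4 over IgG they were -0.40 to 0.42 for Map1s, -1.89 to 0.38 for Map6 and -0.012 to 1.32 for Dclk1. With CPEB1 over IgG they were -1.25 to 1.68 for Map1b, -0.68 to 1.71 for Map1s, -0.19 to 1.43 for Map4, -1.47 to 0.18 for Map6, -0.65 to 1.54 for Dclk1 and -0.15 to 3.97 for Mapt. With CPEB1 over CPEB4 they were -0.57 to 1.24 for Map1a, -0.69 to 1.71 for Map1s, -1.02 to 1.25 for Map6 and -1.30 to 0.89 for Dclk1. With CPEB4 over input Map6 had -1.22 to 1.05. With CPEB1 over input they were -1.56 to 0.26 for Map1a, -2.17 to 0.76 for Map1b, -0.066 to 2.32 for Map1s, -0.10 to 1.51 for Map4, -1.11 to 1.17 for Map6 and -0.025 to 4.63 for Dclk1. With IgG over input they were -0.53 to 0.69 for Map4, -0.47 to 1.81 for Map6 and -0.47 to 4.18 for Dclk1. The folds of Map2 and Map7 between fractions kept their sign under all settings in all 6 comparisons. These settings used the brightest or the averaged probe sets, and none took another probe set alone. Fitted alone for CPEB1 over IgG, 1421328_PM_at of Map2 was at -0.55 and 1421836_PM_at of Map7 at -0.017. For CPEB1 over input 1421836_PM_at was at -0.00072. In the remaining comparisons both had the sign of the brightest probe set. The settings for the named genes outside the 8 were added after seeing the data.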
